A study of Mus musculus with 6 samples.

Results

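The genes described here are 35 cathepsins and other lysosomal genes, taken by name from a list: 11 cathepsins, 14 other hydrolases of the lysosomal lumen, 3 proteins of sphingolipid breakdown, 2 of sterol export, 4 membrane proteins and the transcription factor gene Tfeb. All 35 were measured, among 18193 genes in all, each by its brightest probe set. They were compared between juxtaglomerular (JG) cells, which release renin from the wall of the renal afferent arteriole, and renal mesenchymal stromal cells (MSC). Both came from adult C57BL6 mice of the Ren1c YFP genotype, a strain with a yellow fluorescent reporter for the renin gene. The JG samples (3) were sorted as YFP-positive cells, and the MSC samples (3) were sorted for CD44, a surface antigen, and cultured to confluence with fetal bovine serum. The labels repeat that medium for the JG samples, so whether these were cultured is not given, nor is it given whether replicates are from different mice or dishes. The p-values therefore measure the spread between these samples, which may be technical.

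Lysosomes are acidic organelles that break down protein, glycans and lipids delivered by endocytosis and autophagy. Their enzymes are made as precursors, tagged with mannose 6-phosphate in the Golgi apparatus and matured by cleavage, and several are known from storage diseases that follow their loss. The renin granule of the JG cell is a lysosome-related organelle, and the proximal tubule, which takes up filtered protein, is rich in lysosomes. TFEB and its relatives TFE3, MITF and TFEC are transcription factors that bind E-box motifs near lysosomal genes.

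The 6 arrays had median probe set intensities between 27.3 and 36.5, and 34.4% to 41.5% of the values on an array lay below 16. Across all genes the MSC arrays correlated at 0.971 to 0.975 with each other, the JG arrays at 0.807 to 0.887, and the groups at 0.687 to 0.814. Of 8 MSC and fibroblast markers, Cd44, the sort antigen gene (974 ± 81.9 in MSC against 139 ± 17.3 in JG, SD, n = 3 each), and Pdgfrb were called higher in MSC, and Thy1 (2.93 on the log2 scale) and Nt5e (3.24) higher in JG. Of 4 measured renin cell markers, Rgs5 (1856 ± 659.8 in JG against 148 ± 140.4 in MSC) and Mef2c were called higher in JG. Gja4 lay lower in JG without overlap (-0.60, not called), and Gja5 overlapped. Ren1 itself was not analysed here. The JG samples also carried tubule transcripts: the proximal tubule list had 9 measured genes, each called higher in JG, with a summed intensity of 30829 to 38712 in JG and 362 to 663 in MSC. Both thick ascending limb markers, Umod (7.89) and Slc12a1 (6.08), were called higher in JG. All 5 endothelial markers had JG above MSC and Tek, Cdh5 and Emcn were called, with a summed intensity of 387 to 765 in JG and 42.3 to 49.0 in MSC. Of 12 macrophage markers 4 were called higher in JG (Csf1r, C1qb, Laptm5 and Ptprc). The 12 had a summed intensity of 1499.9 to 4069.7 in JG and 154 to 583 in MSC. The other 8 overlapped between the groups, among them Lyz2 (means of 72.8 in JG and 73.5 in MSC), Adgre1, C1qa and C1qc. Itgam lay below 16 on all arrays and Cd68 between 12.1 and 31.5. C1qb and Laptm5 were called by probe sets of suffix x, while other probe sets of C1qb (-0.14) and Laptm5 (0.52 to 0.64) were not called. The part of these other cells in the values below was not tested. In such bulk samples, fewer cells of a type and less RNA per cell cannot be told apart.

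The 35 genes went both ways between JG and MSC. Ctsh, the aminopeptidase cathepsin H, and Glb1, lysosomal beta-galactosidase, were called higher in JG. Gla, alpha-galactosidase A, Gusb, beta-glucuronidase, and Asah1, acid ceramidase, were called higher in MSC. A call means an adjusted p under 0.05 from limma over all 18193 genes, where 15.3% were called (7.7% higher in JG and 7.63% higher in MSC), so 5 calls among 35 genes is close to the share over all genes. Among genes at or above the median level the share was 24.4%. The median difference of the 35 genes, JG minus MSC after adding 16 to the intensity and taking log2, was -0.41, beside 0.07 over all genes and -0.28 over genes at or above the median level. The groups did not overlap for 14 of the 35, with MSC above for 11 and JG above for 3. Over all genes 38.7% did not overlap, 18.5% with MSC above and 20.2% with JG above. Among the 9097 genes at or above the median level 4302 did not overlap, 2522 with MSC above and 1780 with JG above.

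**Figure D1:**
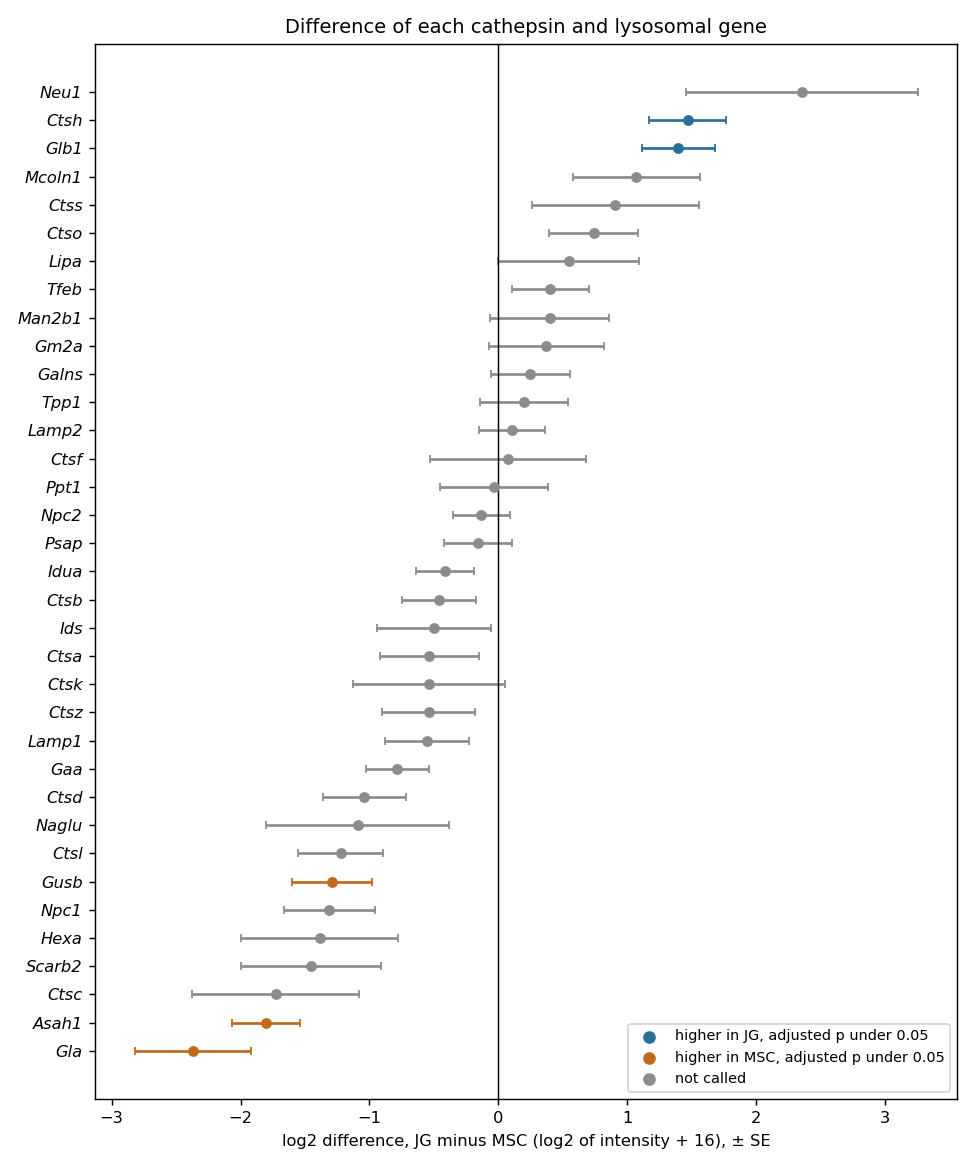
Log2 difference JG minus MSC (x axis, log2 of the intensity plus 16) of each of the 35 genes, with bars of 1 SE. Blue marks Ctsh and Glb1, called higher in JG, orange marks Gla, Asah1 and Gusb, called higher in MSC, and grey marks the genes that were not called, from -1.73 for Ctsc to 2.36 for Neu1.

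Cysteine cathepsins, the papain-like proteases of the lysosome, numbered 9, of which Ctsh was the called member. Ctsh stood at 695, 464 and 782 in JG samples 1 to 3 and at 259.9, 235 and 169.5 in MSC samples 1 to 3. Every JG value lay above every MSC value. The difference was 1.47 ± 0.30 (SE, adjusted p = 0.0236), a ratio of means of 2.92. Its other probe set read 588.8, 321 and 947 in JG and 218, 310.1 and 124 in MSC, in the same direction without a call (adjusted p = 0.117 over all probe sets).

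Ctsl, the gene of cathepsin L, an endopeptidase, was near the threshold on the MSC side. It stood at 6916, 6763 and 7221 in the MSC samples and at 4604, 2125 and 2691 in the JG samples. The MSC values were tightly grouped and lay above all JG values, but the difference of -1.22 ± 0.33 was not called (adjusted p = 0.0543). Without JG sample 1, the highest of the JG values, it was called (-1.54, adjusted p = 0.00791), in a fit that called 28.5% of all genes. Ctsc, the gene of the dipeptidyl peptidase that activates serine proteases of leukocyte granules, read 551, 412 and 779.7 in MSC and 189, 51.2 and 369.6 in JG. These groups did not overlap either, but the JG values spanned a wide range and the gene was not called (-1.73 ± 0.65, adjusted p = 0.126).

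The remaining 6 cysteine cathepsins were not called. Ctsb, which has been studied as a candidate enzyme of prorenin processing, had a mean of 5293 ± 537 in MSC against 3933 ± 1057 in JG (-0.46 ± 0.29, adjusted p = 0.318). Ctsz, a carboxypeptidase gene, had a difference of -0.54 ± 0.36. Its dimmer probe sets, at -2.02 and -1.96, had MSC above without overlap and were not called. Ctsf had a difference of 0.08 ± 0.60, with 1266 in JG sample 1 and 278 and 435 in the others. Ctso was 207 ± 12.4 in JG and 125 ± 58.3 in MSC and did not overlap (0.74 ± 0.34, adjusted p = 0.195). Ctsk, the collagen-degrading cathepsin of osteoclasts, and Ctss, the cathepsin of antigen-presenting cells, each had values below 16 on some arrays. Ctsk read 67.3, 94.0 and 15.6 in MSC and 67.2, 13.6 and 22.4 in JG. Ctss was at 117 in JG sample 1, 12.9 and 19.0 in JG samples 2 and 3, and 3.06, 28.3 and 8.16 in MSC. Both overlapped between the groups.

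Ctsa and Ctsd belong to other protease classes. Ctsd encodes the aspartic protease cathepsin D and read 2691, 3219.9 and 3201 in MSC and 1806, 1831 and 950.3 in JG. The groups did not overlap, and the difference of -1.04 ± 0.32 was not called (adjusted p = 0.0805). Ctsa encodes a serine carboxypeptidase that holds beta-galactosidase and neuraminidase 1 together in a complex. Its means were 1495 ± 252 in MSC and 1103 ± 575 in JG, with 1766 in JG sample 1 inside the MSC range (-0.53 ± 0.39, adjusted p = 0.389).

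**Figure D2:**
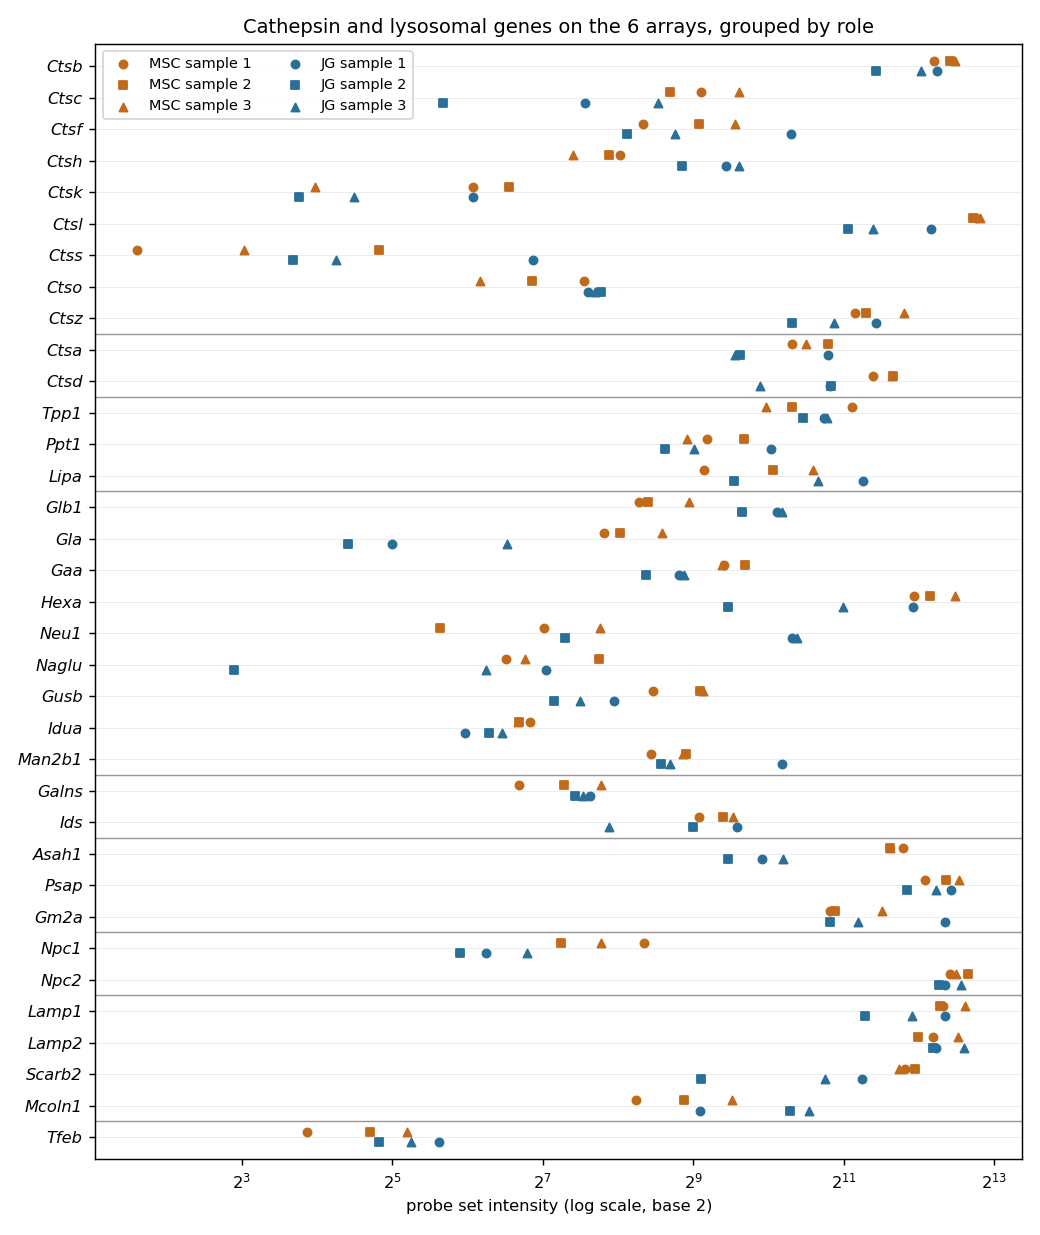
Intensity (x axis, log scale) of the 35 genes on each array, MSC in orange above JG in blue in each row, with a marker shape per sample and grey lines between the roles. Ctsh, Ctso and Glb1 have all JG values above all MSC values, and JG sample 2 (blue squares) is the lowest JG value in 29 of the 35 rows.

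Glycosidases, which take sugars off glycolipids and glycoproteins, numbered 9 and held 3 of the 5 calls, 1 higher in JG and 2 higher in MSC. That is 33.3% of a small set, beside 15.3% of all genes and 24.4% of genes at or above the median level. Glb1, whose product removes terminal galactose from ganglioside GM1 and keratan sulfate, read 1106, 806 and 1157 in JG and 312, 339 and 492 in MSC. No value overlapped, and the difference was 1.40 ± 0.28 (adjusted p = 0.0230), a ratio of means of 2.69. Its partner in the complex, Neu1, a sialidase, was at 1270.4, 157 and 1336 in JG and 129.9, 49.7 and 216 in MSC. JG sample 2 lay inside the MSC range. The difference of 2.36 ± 0.90, the highest of the 35, was not called (adjusted p = 0.131). Neu1 was called without JG sample 2 and with array weights, where 15.5% and 34.0% of all genes were called.

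Gla had the largest difference on the MSC side. Its product cleaves globotriaosylceramide, the lipid stored in Fabry disease. Gla read 226, 261 and 384 in MSC and 32.1, 21.2 and 92.5 in JG. All JG values lay under all MSC values (-2.37 ± 0.45, adjusted p = 0.0187), and the mean was 5.97 times as high in MSC. Its other 2 probe sets were dimmer and not called (-0.93 with overlap and -0.55), and with the mean of all 3 the difference was -1.28, still called. Gusb, which degrades glycosaminoglycans such as dermatan and heparan sulfate, read 353, 548 and 559 in MSC and 248, 142 and 179.9 in JG. It too did not overlap (-1.29 ± 0.31, adjusted p = 0.0393), with a ratio of means of 2.56 in favour of MSC. Its second probe set, at 36.4, 342 and 26.2 in JG and 101.1, 248 and 198 in MSC, overlapped. The Gusb call was lost with quantile normalization (adjusted p = 0.0570), a pseudocount of 1 (0.0862), the mean of its probe sets (0.112) and a trended, robust variance prior (0.0839).

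The other glycosidases were not called. Hexa, the alpha chain of beta-hexosaminidase, was at 3934, 4531 and 5703 in MSC and at 3889, 703 and 2029 in JG. JG sample 1 came close to the MSC values and JG sample 2 lay far below (-1.39 ± 0.61, adjusted p = 0.176). Gaa, which frees glucose from glycogen, read 682, 828 and 667 in MSC and 451, 331 and 473 in JG. It did not overlap (-0.78 ± 0.25, adjusted p = 0.0846). Its dimmer probe set, at -1.58, also had MSC above without overlap and was not called. Idua also did not overlap (-0.41 ± 0.23), while Naglu (-1.09 ± 0.71) and Man2b1 (0.40 ± 0.46) did. The sulfatase genes Galns (0.25 ± 0.31) and Ids (-0.50 ± 0.44), needed for the breakdown of sulfated glycosaminoglycans, overlapped between the groups.

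The promoter regions of the genes were searched for CACGTG, the E-box that TFEB and its relatives bind, and for the longer CLEAR motif, which is CACGTG with GT before and AC after it. Both are palindromes, so each match counts for both strands. Windows of 300 bases (250 before and 50 from the start of transcription on) from RefSeq, build GRCm38.p6, were found for 30 of the 35 genes, and a gene with several starts counted once. CACGTG was present for 10 of the 30 (33.3%), beside 8.09% of 27025 genes, and the CLEAR motif for 0 of the 30, beside 0.37%. The 10 were Ctsf, Ctsl, Ctsa, Ctsd, Glb1, Gla, Gaa, Naglu, Lamp1 and Mcoln1. The 250 bases before the start are shown for Glb1, called higher in JG, and Gla, called higher in MSC, since both carry the motif, with CACGTG in capitals. Glb1 lies at chr9:114400828-114401077 (plus strand), with the motif starting 48 bases before the start. Gla lies at chrX:134601006-134601255 (minus strand), with matches starting 227 and 194 bases before it.
Glb1: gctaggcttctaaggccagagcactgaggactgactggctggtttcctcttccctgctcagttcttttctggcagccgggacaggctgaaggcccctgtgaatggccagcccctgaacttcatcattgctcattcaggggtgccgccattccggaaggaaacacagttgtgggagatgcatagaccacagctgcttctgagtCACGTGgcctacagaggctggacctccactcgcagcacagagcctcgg
Gla: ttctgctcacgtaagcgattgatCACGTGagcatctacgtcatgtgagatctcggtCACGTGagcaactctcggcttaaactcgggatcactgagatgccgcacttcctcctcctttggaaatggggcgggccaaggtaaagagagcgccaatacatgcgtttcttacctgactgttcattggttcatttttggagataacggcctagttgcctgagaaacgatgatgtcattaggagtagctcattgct

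Shorter stretches are given for 4 genes that were not called, to compare the bases around the motif. They come from Ctsd at chr7:142387903-142387942 (minus strand), Mcoln1 at chr8:3500457-3500496, Lamp1 at chr8:13159099-13159138 and Naglu at chr11:101070004-101070043 (plus strand for the last 3). Lamp1 held the most matches, 4 within the last 61 bases before its start, of which 1 is in capitals here.
Ctsd: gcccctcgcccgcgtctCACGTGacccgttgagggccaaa
Mcoln1: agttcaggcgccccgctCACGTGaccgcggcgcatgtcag
Lamp1: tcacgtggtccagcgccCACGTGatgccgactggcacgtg
Naglu: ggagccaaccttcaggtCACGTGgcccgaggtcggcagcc
The motif stood before genes of either direction. The 10 genes with CACGTG had differences from -2.37 (Gla) to 1.40 (Glb1) with a median of -0.67, and 7 were below 0. The 20 genes without it ranged from -1.73 (Ctsc) to 2.36 (Neu1) with a median of -0.08, and 11 were below 0. Gusb was the called member among those 20. Windows for Asah1, Ctsb, Ctsh, Galns and Npc1 were not used here.

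Sphingolipid breakdown held the gene with the smallest adjusted p of the 35. Asah1, which splits ceramide into sphingosine and fatty acid, read 3543, 3144 and 3149 in MSC and 966, 708 and 1173 in JG. The groups lay far apart compared with their spread (-1.80 ± 0.26, adjusted p = 0.00741), and the mean was 3.46 times as high in MSC. Psap, the precursor of the saposins that present lipids to these enzymes, was 5173 ± 788 in MSC and 4656 ± 926 in JG (-0.16 ± 0.26). Gm2a, the GM2 activator, was 2213 ± 623 and 3119.5 ± 1839 (0.37 ± 0.45). Neither was called. Psap changed sign with quantile normalization, and both did with the mean of their probe sets.

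Of the genes of sterol export, Npc1, a membrane protein that moves cholesterol out of the lysosome, was near the threshold. It read 327, 151 and 218 in MSC and 75.8, 59.6 and 111 in JG. No value overlapped (-1.31 ± 0.35, adjusted p = 0.0550). Npc2, the soluble partner that hands cholesterol to Npc1, was 5906 ± 496 and 5399.9 ± 581 by its brightest probe set (-0.13 ± 0.22), with a change of sign under quantile normalization.

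Membrane proteins of the lysosome were not called. Scarb2, which carries beta-glucocerebrosidase to the lysosome, read 3606, 3962 and 3417 in MSC and 2430.1, 552 and 1729 in JG. The groups did not overlap, but JG sample 2 lay far under the others (-1.45 ± 0.54, adjusted p = 0.126). Without JG sample 1 the gene was called (-1.88, adjusted p = 0.0409), in a fit that called 28.5% of all genes. The genes of the abundant membrane glycoproteins had differences of -0.55 ± 0.33 for Lamp1 and 0.11 ± 0.26 for Lamp2. Mcoln1, a calcium channel of the lysosome, was 1097 ± 491 in JG and 501 ± 216 in MSC and overlapped (1.07 ± 0.49, adjusted p = 0.190). The remaining lumen enzymes were Tpp1, a tripeptidyl peptidase (0.20 ± 0.34), Ppt1, a thioesterase (-0.03 ± 0.42), and Lipa, the acid lipase of cholesterol esters (0.55 ± 0.55). All 3 overlapped by their brightest probe set, and Ppt1 changed sign with quantile normalization. The other probe sets of Lipa and Tpp1 had JG above MSC without overlap. For Ppt1, probe sets at -2.61 and -0.87 had MSC above without overlap, and its others overlapped. None of these probe sets was called. Tfeb lay around the array medians of 27.3 to 36.5. It read 49.3, 28.4 and 38.1 in JG and 14.6, 26.1 and 36.7 in MSC (0.40 ± 0.30, adjusted p = 0.403).

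Most calls rested on having all samples, but the share called over all genes moved as well. It was 15.3% with all samples, and 6.82%, 6.33% and 6.26% without MSC sample 1, 2 or 3. Without JG sample 2 or 3 it was 15.5% and 10.6%. Asah1 stayed called whichever sample was dropped (adjusted p up to 0.0441). Gla lost it without MSC sample 1, 2 or 3 (0.0606, 0.0745 and 0.0846). Ctsh lost it without MSC sample 1, 2 or 3 (0.0683, 0.0872 and 0.101) or JG sample 3 (0.0659), and Glb1 without MSC sample 1 or 2 (0.0965 and 0.102) or JG sample 3 (0.0660). Gusb lost it without MSC sample 1, 2 or 3 (0.0647, 0.144 and 0.153), JG sample 2 (0.0701) or JG sample 3 (0.0955). With a pseudocount of 1 the calls of Ctsh (0.0594) and Glb1 (0.0665) were lost too, and that of Ctsh with the trended, robust variance prior (0.0514). The sign of the difference stayed for all 5 in each of these fits. Without JG sample 1, 7 of the 35 genes were called higher in MSC and 3 in JG, beside 28.5% of all genes.

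The genes also shared a pattern among the JG samples. JG sample 2 had the lowest of the 3 JG values for 29 of the 35 genes (82.9%), beside 40.6% of all genes and 53.6% of genes at or above the median level. JG sample 1 had the highest for 20 of the 35 (57.1%), beside 36.9% and 45.4%. Measured from the MSC mean of each gene, the median position of the 35 genes was 0.10 in JG sample 1, -0.62 in JG sample 2 and -0.25 in JG sample 3 on the log2 scale. For genes at or above the median level it was -0.13, -0.52 and -0.09, so JG sample 2 was also low over these. The median SD of the 35 genes on the log2 scale was 0.34 in MSC and 0.55 in JG, beside 0.26 and 0.54 over all genes. For genes at or above the median level this SD was 0.31 in MSC and 0.73 in JG.

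Probe sets of 1 gene did not always read alike. The 35 genes had 81 probe sets, and 25 genes had more than 1. Of the 81, 8 were called, beside 12.9% of 34945 probe sets: those used for the 5 called genes and 1 each of Ctsb, Npc2 and Scarb2. The called probe set of Npc2 read 2628, 3777 and 3706 in MSC and 1813, 662 and 864 in JG (-1.70 ± 0.42, adjusted p = 0.0476), where the brightest had shown -0.13. That of Ctsb had -1.73 ± 0.42 (adjusted p = 0.0462), where the 5 probe sets of this gene ranged from that value to 1.42 without a call. That of Scarb2 had -2.12 ± 0.51 (adjusted p = 0.0442), in the direction of the brightest.

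Lamp2 was the gene whose probe sets separated the groups in both directions. It is known to give splice forms with different membrane tails, and which form each probe set reads was not examined. A probe set at 1946, 2354 and 2749 in JG and 1175, 1364 and 1264 in MSC had JG above MSC (0.87 ± 0.23, adjusted p = 0.0602). Another, at 2514, 954 and 1225 in JG and 2562, 2830.0 and 3514 in MSC, had MSC above JG (-1.03 ± 0.40, adjusted p = 0.146). The other two overlapped between the groups.

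**Figure D3:**
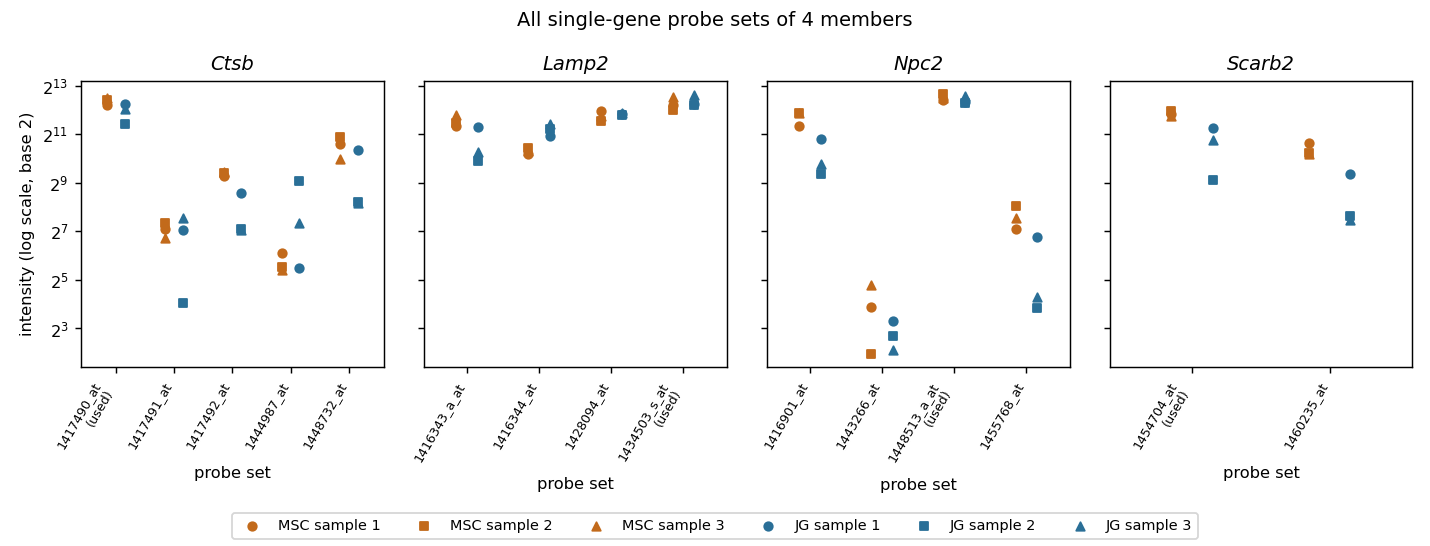
Intensity (y axis, log scale) of every single-gene probe set of Ctsb, Lamp2, Npc2 and Scarb2 (x axis) on the 3 MSC (orange) and 3 JG (blue) arrays. The probe sets used for the gene values are marked, and the Lamp2 probe sets lie apart in opposite directions (0.87 and -1.03).

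Other genes of the lysosome were also split between JG and MSC. Of 51 measured hydrolase, membrane and transport genes, 6 were called higher in JG and 4 higher in MSC (19.6% in all, beside 15.3% of all genes), with a median difference of 0.02. Smpdl3a, a phosphodiesterase related to acid sphingomyelinase, had the largest difference: 2474, 1352 and 1751 in JG against 108, 183 and 58.8 in MSC (3.89 ± 0.43, adjusted p = 0.00240). Clcn6, a chloride and proton exchanger (1.91), Tmem175, a potassium channel of the lysosome (1.82), and Arsb, the sulfatase of dermatan sulfate (1.61), were higher in JG as well. Litaf (-2.86), Ostm1, a subunit of the lysosomal chloride transporter (-2.38), Aga, which splits the link between sugar and asparagine (-2.25), and the lysosomal phospholipase Pla2g15 (-2.20) were higher in MSC. A second probe set of Tmem175 had MSC above JG without overlap (-1.04, not called). The Tmem175 call was lost with the mean of both (0.39, adjusted p = 0.229) and without MSC sample 1 (0.0553) or 2 (0.0517). Averaging its probe sets left Pla2g15 called at -1.42. With any 1 sample left out, Smpdl3a, Arsb and Pla2g15 remained called. The counts of calls in JG and MSC were 2 and 2 without MSC sample 1, 2 and 1 without MSC sample 2, and 4 and 1 without MSC sample 3, where 6.82%, 6.33% and 6.26% of all genes were called. With JG sample 1 left out they were 7 and 10, with JG sample 2 left out 10 and 6, and with JG sample 3 left out 4 and 3, beside 28.5%, 15.5% and 10.6% of all genes.

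**Figure D4:**
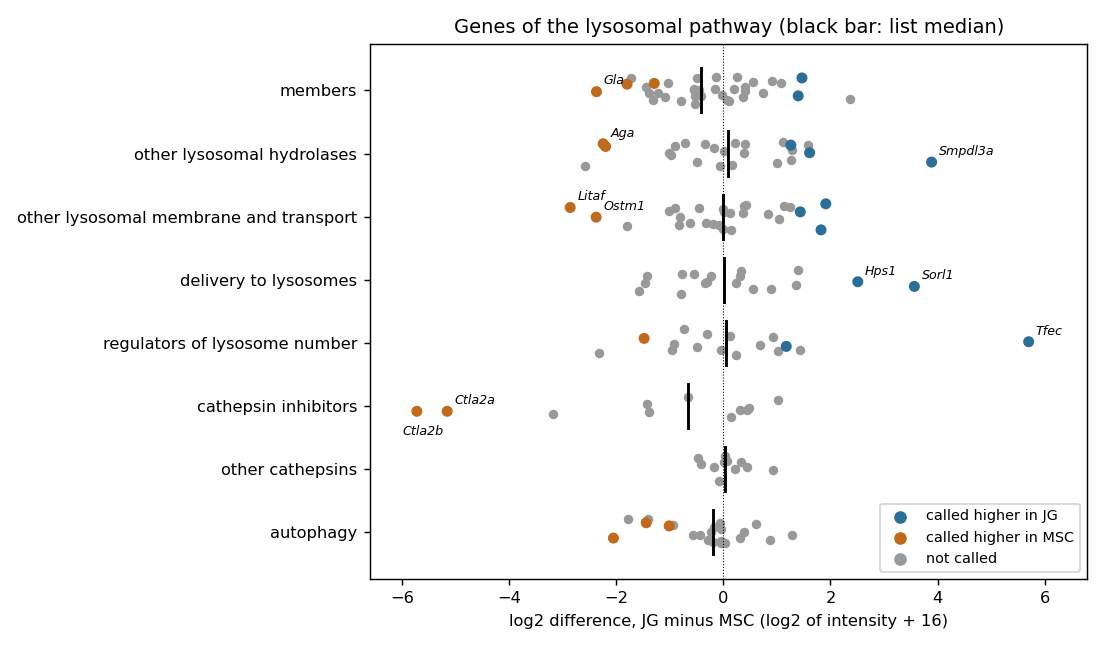
Log2 difference JG minus MSC (x axis) of the 35 genes (members) and of 7 lists of other genes of the pathway, each point a gene with random vertical scatter, and the black bar the list median. Tfec (5.70), Smpdl3a (3.89) and Sorl1 (3.57) stand out on the JG side, and Ctla2a (-5.16) and Ctla2b (-5.72) on the MSC side.

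Of 11 measured cathepsin inhibitors, 2 were called, both higher in MSC (18.2%, beside 15.3% of all genes). Ctla2a and Ctla2b encode small proteins related to the propeptide of cathepsin L and known to inhibit such cathepsins. Ctla2a read 8152, 6992 and 9080.3 in MSC and 88.4, 269.6 and 367 in JG (-5.16 ± 0.50, adjusted p = 0.00141). Ctla2b read 2267, 1595 and 1922 in MSC and 6.66, 24.0 and 37.3 in JG (-5.72 ± 0.37, adjusted p = 0.000287). Every MSC value of both genes lay far above every JG value, and no single sample's removal ended either call. They are near-identical genes with 1 probe set each, so how far each probe set reads the other gene is uncertain. The other 9 measured inhibitors, among them Cst3 and Cstb, the genes of cystatins C and B, were not called.

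Among 16 regulators of lysosome number, Tfec, Rragd and Rptor were called (18.8%). Tfec, the member of the TFEB family best known from macrophages, read 716, 3611 and 3669.7 in JG and 12.0, 109 and 3.76 in MSC. JG sample 1 was the lowest of the JG values and still above every MSC value (5.70 ± 0.91, adjusted p = 0.0102), and without MSC sample 1 the call was lost (adjusted p = 0.0518). Tfe3 and Mitf, the other relatives of Tfeb, had differences of -0.31 and -0.49 and were not called. Rragd, a GTPase gene of the pathway that recruits mTORC1 to lysosomes, was higher in JG (1.17) and Rptor, a subunit of mTORC1, higher in MSC (-1.48). A second probe set of Rragd was called the other way, at 183, 181 and 160.1 in MSC against 93.9, 38.6 and 56.5 in JG (-1.33, adjusted p = 0.0409 over all probe sets). With the mean of their probe sets Rragd was at -0.10 and Rptor at -0.61 without a call. Rragd was not called with a pseudocount of 1 (0.0874) or the trended, robust variance prior (0.0747) either. Both lost their call without any 1 of the MSC samples (0.0787 to 0.0975 in all), and Rragd also without JG sample 3 (0.0516).

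Of 18 genes of delivery to lysosomes 2 were called (11.1%), and 9 lay above 0 and 9 below. Sorl1, a sorting receptor, read 600.2, 795 and 283 in JG and 36.6, 24.4 and 26.3 in MSC (3.57 ± 0.41, adjusted p = 0.00277), and all 3 of its probe sets were called higher in JG. Hps1, a gene of lysosome-related organelle assembly, was also higher in JG (2.51), by 1 of its 4 probe sets and with MSC values all below 16. Its other probe sets, at 0.53, -0.28 and 0.80, were not called. The Hps1 call was lost on leaving out any sample other than JG sample 1 (adjusted p from 0.0547 to 0.118). It was also lost with the mean of its probe sets (0.89), with a pseudocount of 64 (adjusted p = 0.0816) and without probe sets of suffix s or x (0.53). Of 22 autophagy genes 3 were called (13.6%). Atg12 (-2.05), Atg14 (-1.44) and Uvrag (-1.01) were higher in MSC, and all 3 lost their call without any 1 of the MSC samples (adjusted p from 0.0851 to 0.147) or without JG sample 3 (0.0618 to 0.0741). Uvrag lost it without JG sample 2 too (0.0574), and with quantile normalization (0.0962), a pseudocount of 1 (0.125), the trended, robust prior (0.133) or filters on dim genes (0.0632 and 0.0687). Atg12 was not called with a pseudocount of 1 (0.0531). Of the other 11 cathepsin genes, such as Ctse, Ctsg and Ctsw, limma called 0, with 1 at an unadjusted p under 0.05, and in each group 7 of them lay below 16 on all 3 arrays.

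Acp5, the tartrate-resistant acid phosphatase of lysosomes and a marker of osteoclasts and macrophages, was higher in JG, at 475, 218 and 1132 against 4.79, 17.03 and 10.72 in MSC (4.27 ± 0.58, adjusted p = 0.00555). Of the other osteoclast markers, Ocstamp and Dcstamp lay below 16 on all arrays and Calcr between 7.24 and 20.8. The part of macrophages in the Acp5 and Tfec values was not tested.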

How the data were processed

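Biotin-labelled cRNA from 100 ng total RNA was hybridised to single-channel Affymetrix mouse arrays, per the labels' protocols. The table deposited by the authors gives linear intensities, with 868 to 1311 values per array at exactly 1. The steps of summarising, background correction and scaling before deposit are not stated in the sources read. The number of arrays limits the precision. The platform annotation names 1 gene for 34945 of the 45037 probe sets, several for 932 and none for 9160, and only the first kind was used. Each of 18193 genes took the probe set with the highest mean log2 value. Log2 of the intensity plus 16 was fitted as JG minus MSC on all 6 samples with lmFit and eBayes (limma 3.58.1, R 4.3.3), with Benjamini-Hochberg adjustment over all genes, a threshold of 0.05 and no filter or further scaling. The pseudocount understates changes of dim genes. The fit was tested on simulated data with the same SD in both groups. In these data the median SD on the log2 scale was 0.26 in MSC and 0.54 in JG. The simulation therefore does not show how the fit behaves with unequal spread.

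The 35 genes, the other lists and the alternatives were chosen with earlier results of these data known. By-sample values are given for called genes of the 35 and, in each role, up to 2 others without overlap and with the largest difference. Of the other lysosomal genes, up to 4 called in each direction were named, and of the remaining lists the called genes. Neu1, Ctsk, Ctss, Tfeb and genes described by their probe sets were added after their values were seen. Same-numbered samples did not deviate together (correlations -0.20, -0.01 and -0.01). Alternatives were quantile normalization, median centring, pseudocounts of 1 and 64, filters on dim genes, other probe set choices, other variance models, the replicate block and each sample left out. Figures were drawn with matplotlib 3.10.9.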

Additional observations from a re-analysis of the deposited data

How the results depend on the processing

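Counts of called genes moved with the variance model and the samples, and the cause was not tested. With array weights 6177 of all genes were called, 4 of the 35 genes were higher in JG and 8 in MSC, and 12 and 11 of the other lysosomal genes. The replicate numbers are shared by the groups only as labels. With the replicate number as a block 1613 genes were called, 1 of the 35 genes was higher in JG (Neu1) and 2 in MSC, and 3 of the other lysosomal genes were higher in JG. Of the 35 genes, those higher in JG numbered 0 with a pseudocount of 1 (limma, 3 at an unadjusted p under 0.05) and 1 with the trended, robust variance prior. Those higher in MSC numbered 5 with median centring and 7 with averaged probe sets. In the order named, these 4 fits called 14.3%, 14.9%, 17.1% and 17.1% of all genes. Other lysosomal genes higher in MSC numbered 7 with a pseudocount of 64, where 13.7% of all genes were called. With 1 sample left out the ranges were 1139 to 5194 for all genes, 0 to 3 and 1 to 7 for the 35 genes higher in JG and MSC (2 to 4 and 5 to 12 at an unadjusted p), and 2 to 10 and 1 to 10 for the other lysosomal genes. Rragd reversed with the mean of its probe sets (-0.10). Of the 5 called genes Asah1 was called under all 18 alternatives, Gla under 15, Glb1 under 13, Ctsh under 11 and Gusb under 8, with no change of sign. Choosing the brightest probe set by the linear mean was added after seeing the data and kept the 5 calls. Low signals, below 16 on at least 1 array for each of Ctsk, Ctss and Tfeb, limit what can be read for those genes.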
